A study of Mus musculus with 6 samples.

Results

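Acetylation of histone H3 (H3ac) was examined at the genes of 7 transcription factors of the osteoblast lineage, namely Runx2, Sp7, Dlx3, Dlx5, Dlx6, Msx2 and Atf4, in mesenchymal stem cells (MSCs) of mouse bone. Every region of the H3ac table that overlapped the body of a member gene, extended by 5 kb on each side, was taken by position. This step did not use the measured values and gave 16 of the 24431 regions in the table. The members themselves were chosen with earlier results of these data known. A region within 1 kb of a start site of a protein-coding transcript of the member was called a promoter region. There were 8 promoter regions and 8 other regions. In the whole table a start site of any protein-coding gene counted, which gave 11165 promoter regions and 13266 others. Runx2 intragenic region 1, which holds a start site of Supt3, is thus other among the members but a promoter region in the whole table.

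The regions were profiled by CUT&RUN, in which an antibody bound to a histone mark guides a nuclease that releases the DNA beneath it for sequencing. Young MSCs came from mice aged 3 to 5 months and Old MSCs from mice aged 18 to 22 months, and neither group was treated. OldAcetate MSCs, from mice aged 18 to 22 months, were given sodium acetate at 5 mM for 3 days. Each group had 2 libraries of genomic DNA, and the cells of all 3 groups were grown at 2% oxygen. The labels do not say whether the 2 libraries of a group came from different animals, so p-values measure the spread between these libraries, which may be technical. For limma this spread is in large part borrowed from other regions of similar level. Its SE and p-values thus do not rest on the libraries of a region alone.

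RUNX2 is the transcription factor that commits mesenchymal progenitors to the osteoblast lineage, and SP7 (osterix) acts downstream of it in the same cells. The homeodomain proteins DLX3, DLX5, DLX6 and MSX2 regulate Runx2, Sp7 and matrix genes during skeletal development, and ATF4 governs amino acid supply and late matrix genes in osteoblasts. Acetylated histone H3 is a mark of active promoters and enhancers, and cells can turn acetate into acetyl-CoA, from which histones are acetylated.

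Runx2 held 9 of the 16 regions, and they are named here in the direction of transcription. The first promoter region (chr17:44808001-44819500, mm10, minus strand gene) covered the distal start sites, from which transcripts of the longer amino terminus begin, and the second promoter region (chr17:44727001-44740500) covered the proximal start sites. Intragenic region 1 (chr17:44766001-44780500) lay between them. Intragenic regions 2 (chr17:44681001-44723500), 3 (chr17:44649501-44680000), 4 (chr17:44613001-44621500), 5 (chr17:44585001-44601500), 6 (chr17:44518501-44529500) and 7 (chr17:44497501-44509500) followed downstream. In GENCODE M21, regions 2 and 3 each held short exonic stretches of 105 and 174 bp, and regions 1, 4, 5, 6 and 7 held 0 exonic bases of Runx2. The first promoter region and intragenic region 1 also overlapped Supt3, and a start site of Supt3 lay in the latter. The second promoter region overlapped the antisense gene Runx2os1 and region 2 overlapped Runx2os2, and CUT&RUN reads cannot be assigned to one gene or the other.

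Each of the other members had 1 promoter region. These were chr15:102348501-102382000 for Sp7, chr11:95119501-95127500 for Dlx3, chr6:6873001-6886000 for Dlx5, chr6:6855001-6866500 for Dlx6, chr13:53470001-53477500 for Msx2 and chr15:80252501-80265000 for Atf4. Msx2 had a further region over its 3′ end (chr13:53461501-53467000), of which 117 bp were exon and the rest lay outside the gene. The Sp7 region also overlapped Gm36246, Gm23590 and Aaas and covered the start site of Aaas. The Atf4 region also overlapped Mief1 and Rps19bp1 and covered the start site of Rps19bp1. The Dlx6 region also overlapped Dlx6os1, Gm44094 and Dlx6os2. Dlx5 and Dlx6 are neighbours, and the Dlx5 region fell within the extended bounds of both genes.

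Sequences upstream of 3 start sites are shown, those of the members found among the RefSeq promoters. They differ in base composition, and their H3ac values are set against each other below. Each gives the 250 bases before the outermost start site annotated there, 5′ to 3′ on the strand of the gene, read from the RefSeq assembly GRCm38.p6, and none of the 3 windows overlaps an annotated exon. The windows are chr17:44814798-44815047 for the first promoter of Runx2, chr13:53473075-53473324 for Msx2 (both minus strand) and chr15:80254934-80255183 for Atf4 (plus strand). Capitals mark every match, on either strand, to the RUNX core TGTGGT, the homeodomain core TAATTA, the GC box GGGCGG, the cyclic AMP response element TGACGTCA and the TATA box TATAAA.
Runx2 first promoter: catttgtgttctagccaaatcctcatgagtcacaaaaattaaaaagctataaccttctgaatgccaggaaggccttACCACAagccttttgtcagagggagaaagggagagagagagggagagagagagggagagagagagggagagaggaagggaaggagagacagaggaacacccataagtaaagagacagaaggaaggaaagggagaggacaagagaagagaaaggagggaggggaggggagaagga
Msx2 promoter: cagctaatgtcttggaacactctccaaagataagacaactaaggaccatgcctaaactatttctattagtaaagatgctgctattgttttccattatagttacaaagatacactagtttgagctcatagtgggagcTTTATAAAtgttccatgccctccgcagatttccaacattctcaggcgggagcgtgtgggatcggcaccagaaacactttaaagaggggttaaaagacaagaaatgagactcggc
Atf4 promoter: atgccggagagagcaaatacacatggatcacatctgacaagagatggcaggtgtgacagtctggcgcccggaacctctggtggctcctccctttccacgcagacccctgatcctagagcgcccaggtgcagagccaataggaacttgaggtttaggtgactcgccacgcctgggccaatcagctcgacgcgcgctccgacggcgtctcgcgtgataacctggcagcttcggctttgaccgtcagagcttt
The first promoter of Runx2 held a RUNX core that began 174 bases before the start site, on the opposite strand. The Msx2 window held TATA box letters on both strands, overlapping each other, that began 114 and 112 bases before the start site. The Atf4 window held none of these letters, which says only that they are absent from these 250 bases. Among 32851 RefSeq promoters of mouse cut to the same length, 14.0% held the RUNX core, 4.84% the homeodomain core, 32.7% the GC box, 1.55% the cyclic AMP response element and 12.4% the TATA box. The dinucleotide CpG occurred 0 times in the Runx2 window, 5 times in Msx2 and 18 times in Atf4. Of the 7 members, 3 were found among the RefSeq promoters, and Sp7, Dlx3, Dlx5 and Dlx6 were not among them.

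The library totals inferred from the values ran from 2163351 to 3039481 reads, and a member region held between 13 and 319 reads per library. Values are taken to be RPM, reads divided by the library total and scaled to a total of 1e+06. All regions together shifted, with median log2 differences of -0.35 (Old vs Young), 0.24 (OldAcetate vs Old) and -0.11 (OldAcetate vs Young), so members are read below both as given and after scaling that sets this median to about 0. Promoter regions were present at 10 of 10 stromal marker genes and at 0 of 6 genes of the mature osteoblast or osteocyte. They were also present at 4 of 4 chondrocyte and 3 of 4 adipocyte genes, at 3 of 8 haematopoietic genes (Spi1, Csf1r and Cd68, but not Ptprc, which encodes CD45) and at 1 of 5 endothelial genes (Erg). For each marker gene only the promoter region with the highest mean RPM entered the sums that follow. The haematopoietic regions summed to 70.7 to 77.6 RPM in Young, 55.3 to 60.1 RPM in Old and 58.5 to 70.1 RPM in OldAcetate. Erg held 16.3 to 17.4, 9.55 to 11.1 and 12.4 to 15.8 RPM in the same order, and the stromal regions summed to 567 to 668, 468 to 506 and 618 RPM in both OldAcetate libraries. The chondrocyte regions summed to 118 to 134, 93.9 to 114 and 104 to 109 RPM, and the adipocyte regions to 63.7 to 66.5, 43.7 to 70.7 and 62.5 to 63.8 RPM. The mean of each of these sums was lower in Old than in Young and higher in OldAcetate than in Old, as for most member regions, and their part in the member values was not tested. Fewer cells that carry the mark at a gene and less mark per cell cannot be told apart in such libraries.

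At Runx2 the summed signal was lower in Old than in Young and higher again in OldAcetate. Over its 9 regions Runx2 held 434 and 372 RPM in the Young libraries, 309 and 307 RPM in the Old libraries, and 393 and 395 RPM in the OldAcetate libraries. Both Old libraries lay below the other 4. The Old mean was 76.4% of the Young mean, where the sum over all regions of the table was 78.1%. The OldAcetate mean was 128% of the Old mean, against 119% for all regions. The 9 regions covered 160500 bp, and the gene spans 318811 bp. As many regions or more were found at 125 of 21951 protein-coding genes, and at 93 of the 567 that span 300 kb or more.

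The second promoter region of Runx2 carried more signal than the first, and its Old libraries were lower than the others. It held 48.4 and 43.7 RPM in Young, 31.9 and 35.4 RPM in Old, and 49.1 and 50.1 RPM in OldAcetate, so that the Old libraries overlapped neither of the other groups. After scaling, the second promoter had a log2 fold change of -0.10 (SE 0.15, limma adjusted p = 0.967) in Old vs Young and 0.32 (SE 0.15, unadjusted p = 0.0352, limma adjusted p = 0.777) in OldAcetate vs Old. The OldAcetate vs Young value was 0.22 (SE 0.15, limma adjusted p = 0.974). With the values as given, these differences were -0.45, 0.55 and 0.11, and their limma adjusted p was 0.0688, 0.0987 and 0.956. None passed the threshold of 0.05. Its sign in Old vs Young rested on single libraries after scaling, and the value ran from -0.23 to 0.04 as each library was left out. Its OldAcetate vs Old value ran from 0.18 (without Old replicate 1) to 0.45 (without Old replicate 2).

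The first promoter region of Runx2 behaved otherwise in Old. It held 25.7 and 24.9 RPM in Young, 26.3 and 23.1 RPM in Old, and 28.6 and 34.2 RPM in OldAcetate. Young and Old overlapped, and both OldAcetate libraries lay above the other 4. The scaled log2 fold change was 0.31 (SE 0.18, limma adjusted p = 0.898) for Old vs Young, 0.10 (SE 0.18, limma adjusted p = 0.969) for OldAcetate vs Old and 0.41 (SE 0.18, unadjusted p = 0.0262, limma adjusted p = 0.964) for OldAcetate vs Young. With the values as given, Old vs Young was -0.04, so its direction depended on the scaling. No difference passed the threshold.

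The ratio of the first to the second promoter region was examined after these values were seen, and it does not depend on the library total. The Young libraries had ratios of 0.531 and 0.570, the Old libraries 0.826 and 0.652, and the OldAcetate libraries 0.582 and 0.683. The Old libraries had higher ratios than the Young libraries, and the OldAcetate libraries overlapped the Old ones. On the log2 scale Old exceeded Young by 0.42, the OldAcetate minus Old difference was -0.22 and OldAcetate exceeded Young by 0.20, against a pooled replicate SD of 0.17. The exact two-sided permutation p was 0.333, 0.667 and 0.333, and 0.333 is the smallest that 2 libraries against 2 can give. Leaving out single libraries moved the first difference from 0.24 to 0.59. As a share of the reads in the 9 Runx2 regions, the first promoter region took 5.91% (95% Wilson interval 4.76 to 7.31%) and 6.70% (5.25 to 8.52%) in Young. It took 8.53% (6.64 to 10.9%) and 7.51% (5.86 to 9.59%) in Old and 7.26% (5.91 to 8.89%) and 8.67% (7.04 to 10.6%) in OldAcetate. These intervals cover counting error only.

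**Figure D1:**
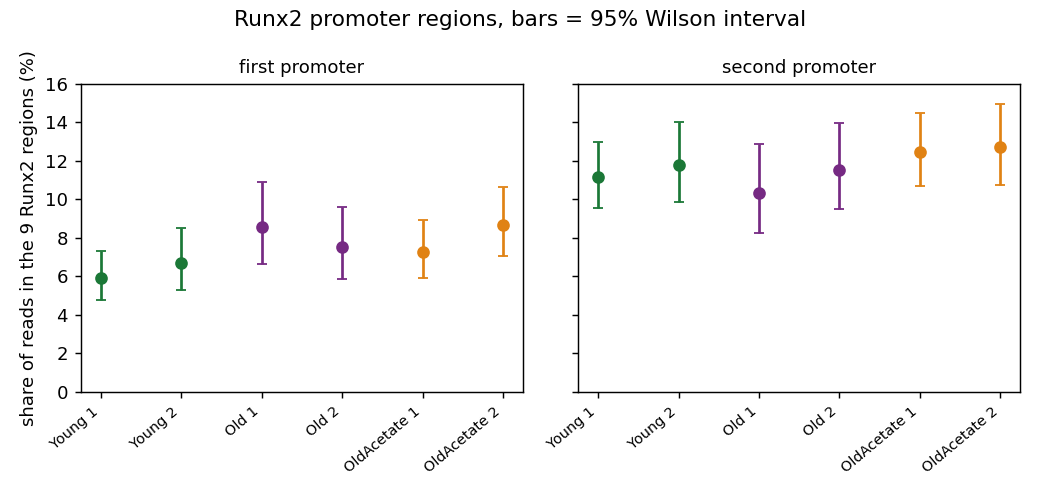
Share of the reads in the 9 Runx2 regions that fell in the first promoter region (left) and in the second promoter region (right), in percent, for each of the 6 libraries. Points are single libraries coloured by group and bars are 95% Wilson intervals. The first promoter took 5.91% and 6.70% in Young and 8.53% and 7.51% in Old, with overlapping intervals.

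Of the 7 intragenic regions of Runx2, only region 3 passed the threshold, and only in Old vs Young with the values as given. It held 97.7 and 82.1 RPM in Young, 60.1 and 55.3 RPM in Old, and 74.6 and 83 RPM in OldAcetate. As given, the difference between Old and Young there was -0.63 (SE 0.14, limma adjusted p = 0.00941), which passed the threshold. Relative to all regions it was -0.28 (SE 0.11, unadjusted p = 0.0158, limma adjusted p = 0.852), which did not. In OldAcetate vs Old it was 0.45 as given and 0.21 after scaling, with limma adjusted p of 0.111 and 0.824. Both Old libraries lay below the other 4.

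Intragenic region 7, near the 3′ end of the gene, had the highest mean level per kb of the intragenic regions. It held 40.8 and 36.8 RPM in Young, 26.8 and 28.2 RPM in Old, and 34.6 and 33.0 RPM in OldAcetate, and the 3 groups did not overlap. Scaled differences at region 7 were -0.14 (SE 0.16, limma adjusted p = 0.958) for Old vs Young, 0.05 (SE 0.16, limma adjusted p = 0.981) for OldAcetate vs Old and -0.08 (SE 0.16, limma adjusted p = 0.984) for OldAcetate vs Young. As given, these were -0.49, 0.29 and -0.19. The other 5 intragenic regions had scaled log2 fold changes from -0.16 (region 1) to 0.15 (region 2) in Old vs Young, and none passed the threshold in any comparison. Region 1 held 38.8 and 35.5 RPM in Young against 28.2 and 23.9 RPM in Old, and region 2 held 94.8 and 71.5 RPM against 69.8 and 73.2 RPM.

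**Figure D2:**
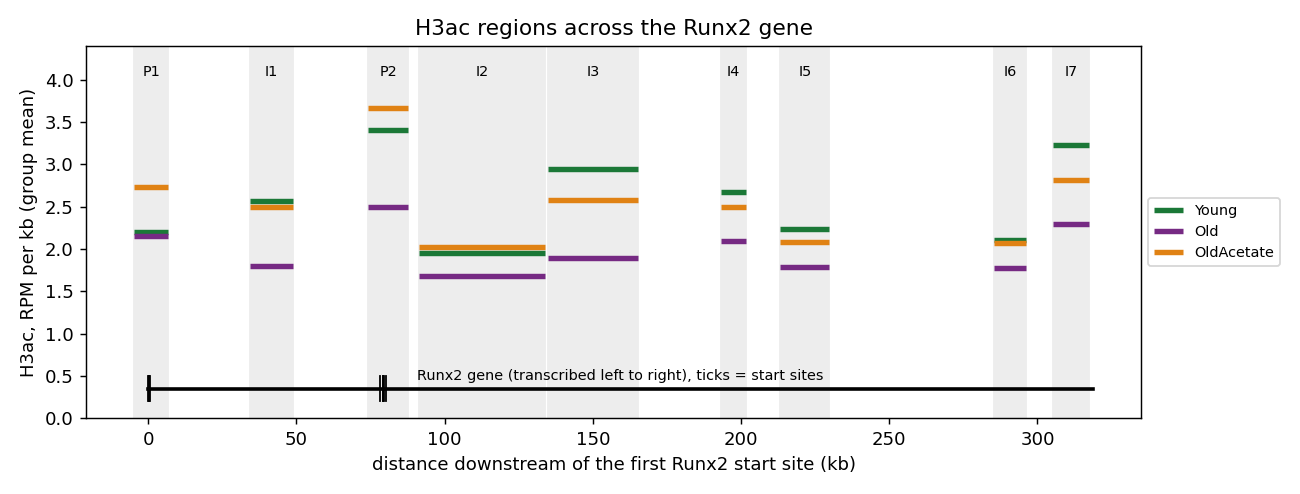
H3ac regions across Runx2, drawn to scale by distance in kb downstream of the first start site, with the mean RPM per kb of each group as coloured bars (n = 2 libraries per group) and grey bands for the region bounds. P1 and P2 are the promoter regions, I1 to I7 the intragenic regions, and ticks on the gene are start sites. The second promoter had the highest group means, 3.41 in Young, 2.49 in Old and 3.67 in OldAcetate, and the first promoter had 2.20, 2.15 and 2.73.

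The Sp7 region had the highest RPM of the member promoter regions and was 33.5 kb long, longer than 96.9% of all promoter regions. Only 10577 bp of it lay in Sp7, and it also covered the start site of Aaas. Its reads thus cannot be assigned to Sp7 alone. The region held 105 and 91.1 RPM in Young, 68.9 and 70.8 RPM in Old, and 93.8 and 90.1 RPM in OldAcetate. The Old libraries lay apart from the others, and Young and OldAcetate overlapped. With the values as given, the Old vs Young difference of -0.48 (SE 0.14, limma adjusted p = 0.0229) passed the threshold. Relative to all regions the difference was -0.13 (SE 0.11, limma adjusted p = 0.928) and did not pass. OldAcetate vs Old was 0.39 as given (limma adjusted p = 0.128) and 0.16 after scaling (limma adjusted p = 0.872), and OldAcetate vs Young was -0.09 and 0.02 (limma adjusted p = 0.953 and 0.993). As given, the limma adjusted p of Old vs Young ran from 0.00984 to 0.235 as single libraries were left out.

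Among the homeobox genes, the promoter regions of Dlx3 and Msx2 had the lowest Old means as a share of Young, and no difference passed the threshold. DLX3 is needed for late osteoblast and hair or tooth differentiation, and its region held 14.8 and 20.4 RPM in Young, 13.4 and 10.7 RPM in Old, and 16.8 and 15.8 RPM in OldAcetate. MSX2, which acts in skull growth, had 29.6 and 27.0 RPM in Young, 16.2 and 22.7 RPM in Old, and 29.2 and 23.4 RPM in OldAcetate. In both genes the Old libraries lay below the Young and the OldAcetate libraries. The Old mean was 68.5% of Young at Dlx3 and 68.7% at the Msx2 promoter. The Dlx3 region had the code Y, described below, and its Old share and its OldAcetate values may in part reflect how the region was found. Relative to all regions, Old vs Young was -0.17 (SE 0.24, limma adjusted p = 0.964) at Dlx3 and -0.20 (SE 0.20, limma adjusted p = 0.949) at Msx2, and OldAcetate vs Old was 0.19 (limma adjusted p = 0.939) and 0.20 (limma adjusted p = 0.924). In OldAcetate vs Young the scaled values were 0.02 (limma adjusted p = 0.999) at Dlx3 and 0.00 (limma adjusted p = 1) at Msx2. Leaving out single libraries reversed the scaled Old vs Young sign of both genes, from -0.47 to 0.14 and from -0.50 to 0.10.

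Dlx5 and Dlx6 are paired genes that act together in jaw and limb bone, and their H3ac was nearly level between Young and Old. The Dlx5 region held 35.9 and 37.6 RPM in Young, 35.6 and 33.8 RPM in Old, and 42.3 and 35.9 RPM in OldAcetate. The Dlx6 region held 25.3 and 22.1 RPM in Young, 30.5 and 22.3 RPM in Old, and 27.6 and 27.1 RPM in OldAcetate. For Dlx5 the Old libraries lay just below the Young ones, and for Dlx6 these groups overlapped. The Old mean was 94.5% of Young at Dlx5 and 111% at Dlx6, the only member region with a higher Old mean. Relative to all regions, Dlx6 had the largest positive member difference in Old vs Young, 0.49 (SE 0.18, unadjusted p = 0.0104, limma adjusted p = 0.852), and Dlx5 had 0.27 (SE 0.16, limma adjusted p = 0.9). As given the same differences were 0.14 and -0.08. In OldAcetate vs Old the scaled values were -0.17 (limma adjusted p = 0.932) at Dlx6 and -0.07 (limma adjusted p = 0.974) at Dlx5, and in OldAcetate vs Young they were 0.32 (limma adjusted p = 0.964) and 0.20 (limma adjusted p = 0.98).

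The region over the 3′ end of Msx2 was the faintest of the 16. It held 13.2 and 9.80 RPM in Young, 11.1 and 5.17 RPM in Old, and 9.41 and 12.9 RPM in OldAcetate, and the groups overlapped. Old replicate 2 had 13 reads there, for which counting error alone is 27.7% of the value. Its scaled log2 fold changes of -0.20 (SE 0.30), 0.27 (SE 0.30) and 0.07 (SE 0.30), in the order Old vs Young, OldAcetate vs Old and OldAcetate vs Young, had limma adjusted p of 0.967, 0.932 and 0.993.

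Atf4 varied little between the libraries of a group. ATF4 is translated under amino acid and endoplasmic reticulum stress, so its protein level is set in large part after transcription. The Atf4 region held 34.5 and 34.7 RPM in Young, 31.4 and 32.6 RPM in Old, and 36.6 and 35.9 RPM in OldAcetate. Of its 12.5 kb, 2358 bp lay in Atf4, and it also overlapped Mief1 and Rps19bp1. The 3 groups did not overlap, with Old lowest and OldAcetate highest, and the Old mean was 92.5% of the Young mean. After scaling, Atf4 differed by 0.24 (SE 0.16, limma adjusted p = 0.914) for Old vs Young, by -0.06 (SE 0.16, limma adjusted p = 0.98) for OldAcetate vs Old and by 0.18 (SE 0.16, limma adjusted p = 0.984) for OldAcetate vs Young. As given these were -0.11, 0.18 and 0.06, so both directions that involve Old turned with the scaling.

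**Figure D3:**
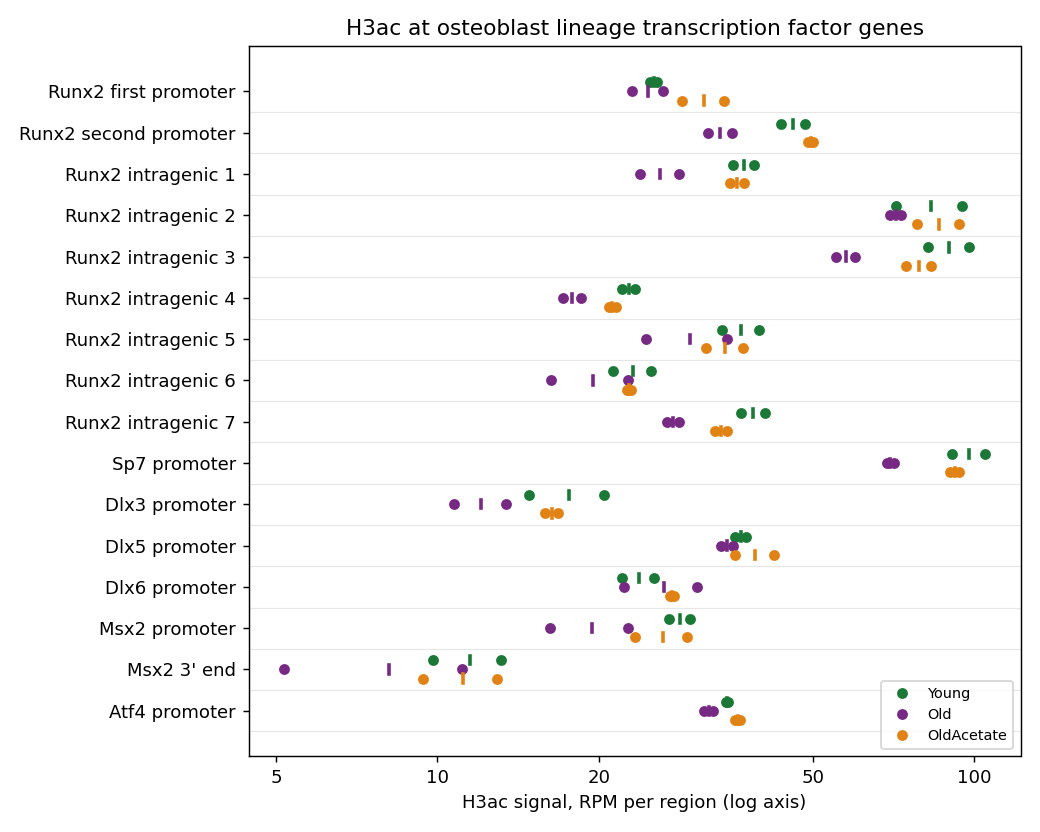
H3ac at the 16 member regions in RPM per region on a log axis. Points are single libraries (2 per group, coloured by group) and vertical bars are group means. Old points lie left of the Young points in 10 regions, among them Sp7 with 68.9 and 70.8 RPM in Old against 105 and 91.1 RPM in Young. Young and Old overlap at the first promoter and intragenic regions 2, 5 and 6 of Runx2, at Dlx6 and at the 3′ end of Msx2.

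The question of the design is whether H3ac differs with age and with acetate, and the 16 regions were counted for each comparison. After scaling, limma called 0 of 16 regions in Old vs Young, where it called 0.00819% of all regions, and 2 members (Runx2 intragenic region 3, lower, and Dlx6, higher) had an unadjusted p under 0.05, as did 5.54% of all regions. It called 0 of 16 in OldAcetate vs Old and 0 of 16 in OldAcetate vs Young, where 0% of all regions were called in both, with 1 member at an unadjusted p under 0.05 in each (the second and the first promoter region of Runx2), as were 6.24% and 5.08% of all regions. With edgeR, run on recovered reads with RLE factors, 0 members passed in each of the 3 comparisons. The median scaled difference of the 16 regions was -0.05, 0.07 and 0.07 in the order Old vs Young, OldAcetate vs Old and OldAcetate vs Young, and 8, 11 and 14 of the 16 were positive. Over all regions the 3 medians were -0.00, 0.00 and 0.00, and 12024, 12283 and 12290 of the 24431 regions were positive.

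With the values as given, 2 of 16 members (Runx2 intragenic region 3 and Sp7) were called lower in Old than in Young, and 9.5% of all regions were called lower there. Both Old libraries lay below both Young libraries in 10 of 16 members, where 60.2% of all regions did, and above them in 0. These calls rested on single libraries, and the set of members called changed as single libraries were left out. In OldAcetate vs Old, limma called 0 members as given, with 5 at an unadjusted p under 0.05 (18% of all regions) and 0 called by edgeR without factors, and 0.311% of all regions were called higher. Both OldAcetate libraries lay above both Old libraries in 12 of 16 members, against 47.1% of all regions. In OldAcetate vs Young, 0 members were called as given, with 0 at an unadjusted p under 0.05 (6.1% of all regions) and 0 by edgeR without factors. Groups did not overlap in 4 members that were higher in OldAcetate (both Runx2 promoter regions, Dlx6 and Atf4), against 7.6% of all regions, and in 2 that were lower (Runx2 intragenic regions 4 and 7), against 29.8% of all regions. The medians of the 16 as given were -0.40, 0.31 and -0.04. Old vs Young and OldAcetate vs Old share the Old libraries, so opposite signs in these 2 comparisons are not separate evidence.

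**Figure D4:**
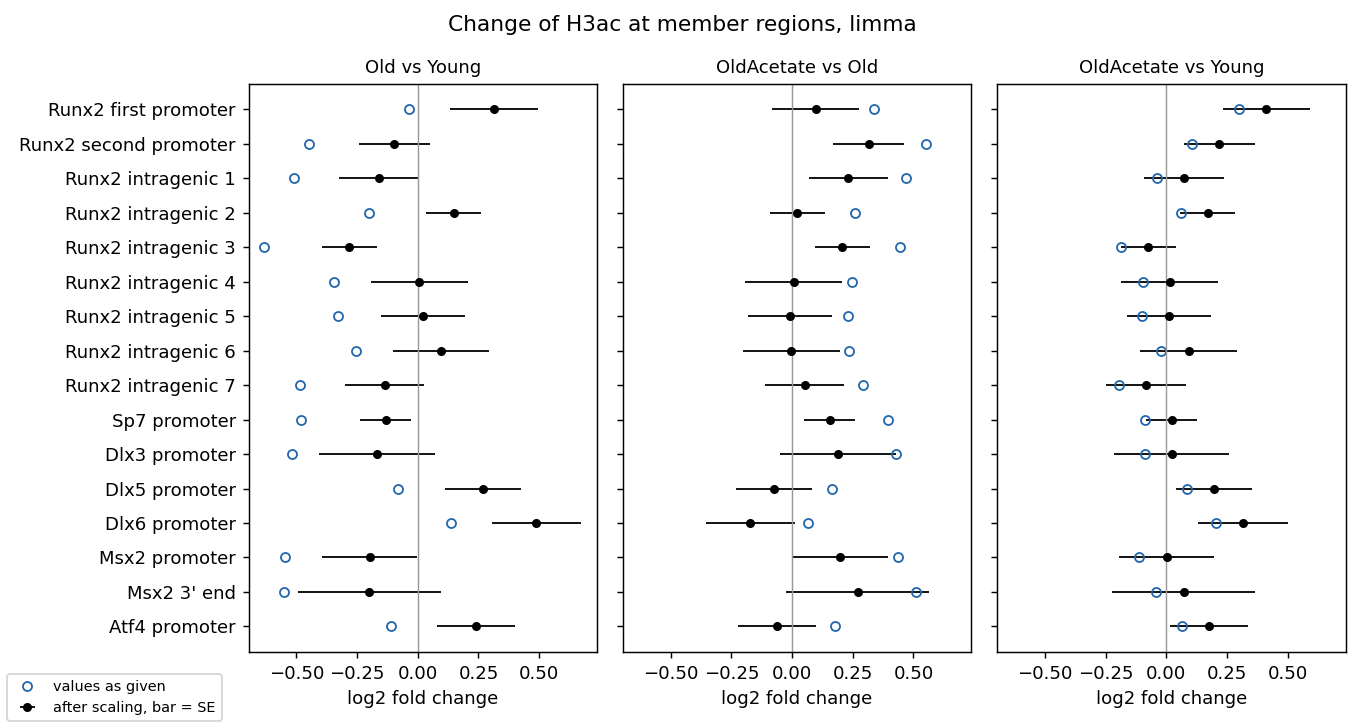
log2 fold change of the 16 member regions in Old vs Young, OldAcetate vs Old and OldAcetate vs Young from limma. Filled points are relative to all regions, with bars of 1 standard error, and open points are the values as given. Scaling moves all points by the same amount within a panel, and after it the members lie from -0.28 (Runx2 intragenic region 3) to 0.49 (Dlx6) in the first panel.

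**Figure D5:**
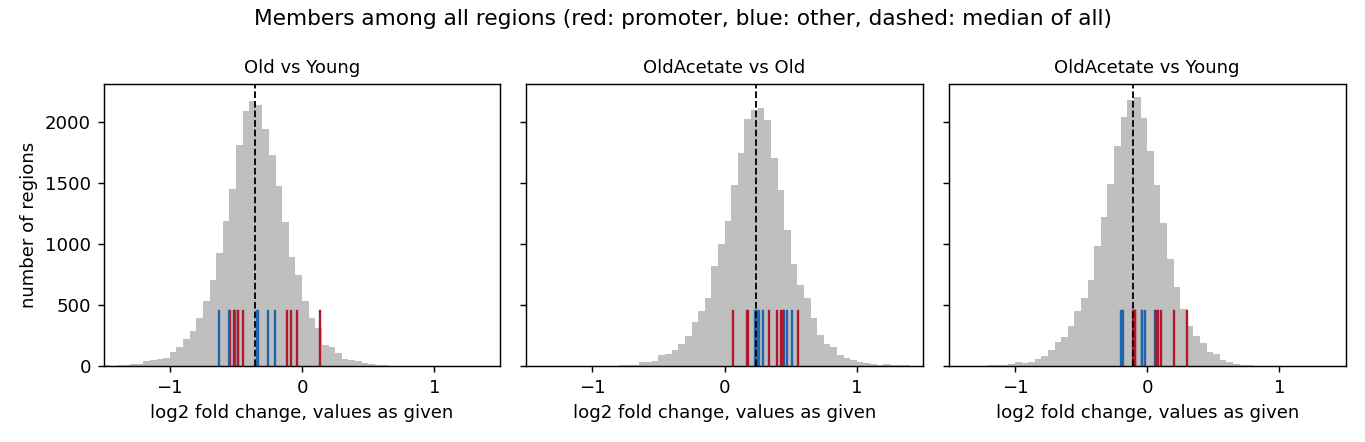
Histogram of the log2 fold change of all 24431 regions with the values as given, in bins on the horizontal axis with the number of regions on the vertical axis, for the 3 comparisons. Red lines are the 8 member promoter regions, blue lines the 8 other member regions, and the dashed line is the median of all regions, -0.35, 0.24 and -0.11. The members lie within the range of each distribution. In the first panel Dlx6 is the only member above 0, as are 1918 of all 24431 regions.

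Promoter regions and other regions of the members are given apart. In Old vs Young the 8 promoter regions had a median scaled difference of 0.07 and the 8 other regions -0.06, against -0.01 and -0.00 for all promoter and all other regions. In OldAcetate vs Old the medians were 0.13 and 0.04, against 0.05 and -0.05. In OldAcetate vs Young they were 0.19 and 0.04, against 0.05 and -0.05. There 8 of 8 member promoter regions were positive, as were 6642 of all 11165 promoter regions, though 3 of the 8 (Sp7, Dlx3 and Msx2) turned negative with the values as given. For each gene the RPM summed over its regions was also compared by exact two-sided permutation. Of the 21 sums, 14 had the smallest p this design allows, 0.333, which means only that the compared groups did not overlap. Among all regions as given, 60.2% were lower without overlap in Old than in Young, and 47.1% were higher in OldAcetate than in Old. The reverse held for 316 and 845 of the 24431 regions. In OldAcetate vs Young, 7.6% were higher and 29.8% lower without overlap. The 21 sums share libraries across comparisons, and the Dlx5 region counts for both Dlx5 and Dlx6, so the sums are not separate tests.

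Levels were compared between genes per kb of region. In Young the promoter of Msx2 had the highest level at 3.77 ± 0.25 RPM per kb (SD, n = 2), followed by the second promoter of Runx2 at 3.41 ± 0.24 and Runx2 intragenic region 7 at 3.23 ± 0.24. Sp7 had 2.93 ± 0.29, Dlx5 2.82 ± 0.093, Atf4 2.77 ± 0.0098, Dlx3 2.20 ± 0.50, the first promoter of Runx2 2.20 ± 0.046 and Dlx6 2.06 ± 0.20 RPM per kb. In this order of 16 regions, 12 of the 15 pairs of neighbours overlapped between their libraries, so most steps in it did not exceed the spread. Over all 6 libraries the mean per kb of Dlx3 was above only 1.63% of all promoter regions, that of Dlx6 above 8.33% and that of Msx2 above 63.4%.

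The regions also differed in sequence, which the choice of members did not use. The first promoter region of Runx2 had a GC content of 36.4%, which was above only 0.215% of all promoter regions, and an observed to expected CpG ratio of 0.21, above 6.3% of them. The second promoter region had a GC content of 45.7% and a CpG ratio of 0.48, above 70.7% of promoter regions. Dlx3 had the highest GC content of the members, 54.7%, and the 3′ end of Msx2 a CpG ratio of 0.50, above 98.7% of all regions away from promoters. The authors' region names carry codes that appear to list the groups in which a region was found, which the labels do not explain. Dlx3 had the code Y, shared with 4.66% of all regions, the 3′ end of Msx2 the code AC+Y, shared with 12.1%, and the other 14 members the code AC+O+Y, shared with 80.6%. At Dlx3 the Old libraries still held 29 and 27 reads. If the codes name the groups in which a region was found, regions without O were favoured to be lower in Old, and those without AC in OldAcetate. The Old values of Dlx3 and of the 3′ end of Msx2, and the OldAcetate values of Dlx3, may in part reflect this, which was not tested.

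The pathway around the members was described with a list of 29 osteoblast regulators that are no members, and 29 of 29 had a promoter region. For each gene only the promoter region with the highest mean RPM was taken, which gave 28 distinct regions. After scaling, limma called 0 of them in each comparison, with 2, 4 and 2 genes at an unadjusted p under 0.05 (5.05%, 6.01% and 4.66% of all promoter regions), and their median differences were -0.03, 0.05 and 0.04. In Old vs Young the highest were Hey1 at 0.39, a Notch target that restrains RUNX2, and Runx1 at 0.28, a RUNX2 paralogue, and the lowest were Gli2 at -0.44, a Hedgehog effector, and Ctnnb1 at -0.34, which encodes β-catenin of the Wnt pathway. In OldAcetate vs Old the highest were Smad5 at 0.39, a BMP effector, and Ctnnb1 at 0.38, and the lowest were Runx3 at -0.33 and Hdac4 at -0.25, a deacetylase that binds RUNX2. In OldAcetate vs Young, Runx1 had 0.35, Hey1 0.34, Gli2 -0.29 and Runx3 -0.27. In the same order of genes, the values as given were 0.04, -0.07, -0.79 and -0.69 in Old vs Young, so Runx1 turned with the scaling. They were 0.63, 0.62, -0.09 and -0.015 in OldAcetate vs Old, and 0.24, 0.23, -0.40 and -0.39 in OldAcetate vs Young. The Runx3 region was faint, with a mean of 7.77 RPM and an SE of 0.34. With the values as given, 6 genes were called lower in Old than in Young, as were 11.5% of all promoter regions, and 0 in the other comparisons. These were Sp1 (-0.51), Cebpb (-0.47), Gli2 (-0.79), Ctnnb1 (-0.69), Eif2ak3 (-0.53) and Trib3 (-0.59), of which Eif2ak3 encodes the kinase PERK upstream of ATF4 and Trib3 is a target of ATF4.

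Promoter regions whose scaled log2 values followed those of the members most closely over the 6 libraries were sought among 5583 promoter regions. For the second promoter region of Runx2 they were those of Mrpl51 and Ncapd2 (r = 0.995), Zbtb20 (r = 0.990) and Nrm and Ppp1r18 (r = 0.988), and 93 regions had r above 0.9. For Sp7 they were those of Mbtd1 and Utp18 (r = 0.991), Camk2g and Ndst2 (r = 0.991) and Fndc8 and Rad51d (r = 0.989), and 106 regions had r above 0.9. With 6 points that share libraries these are descriptions only.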

How the data were processed

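H3ac CUT&RUN was measured in 6 libraries, 2 each of Young, Old and OldAcetate MSCs, grouped by their titles. The deposited table gives RPM for 24431 regions, 1 column per library. It is called RPKM, but in each column 100% of the values are whole multiples of the value of 1 read (tolerance 0.01) whatever the region length, so whole reads and library totals were recovered. Bowtie2, Picard and the build mm10 are named in the submitters' processing notes, and the region caller is not given in the sources used here. Yeast DNA was added when the reaction was stopped, and no source used here says if the authors scaled by it. The paper at hand describes a different experiment and served for style alone.

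Regions were annotated with GENCODE M21. All regions entered a single limma fit (limma 3.58.1, R 4.3.3) of group means on log2(RPM + 0.5), after each library's median deviation from the region means was subtracted, with trend and robust eBayes and Benjamini-Hochberg adjustment over all regions (threshold 0.05). Fold changes on this scale understate low regions. The values as given skip the subtraction. The design had assumed values scaled to depth or length, and the test was kept. edgeR 4.0.16 was run on the recovered reads. A further promoter sequence is not reported here. Counting error alone was 8.14 to 27.7% at the lowest library of a member region. The fit was tested on simulated data.

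The members and the lists of regulators and markers were chosen with earlier results of these data known. By rule, full statistics go to each member promoter region, to the non-promoter region of a gene with the highest level per kb and to called regions, and of the regulators the called, or the 2 highest and 2 lowest per comparison, are named. The remaining Runx2 regions that are named and the promoter ratio were chosen after their values were seen. The fit was repeated with a replicate block, with pseudocounts of 0.1 and 1, as given, with quantile normalization, without the lowest 25% of regions, with only the compared libraries, with eBayes lacking trend and robust, with edgeR, and without each library in turn. Other bounds (gene bodies alone or with 20 kb, and 2 kb for promoters) and a threshold of 0.01 were also tried. Python 3.11.15 and matplotlib 3.10.9 made the figures.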

Additional observations from a re-analysis of the deposited data

How the results depend on the processing

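Library omission with the values as given and for the Runx2 promoter ratio was added after seeing the data. After scaling, 0 member regions were called in every comparison under each scaled alternative run. In Old vs Young 2 were called with the values as given and 2 with edgeR without factors, settings that by construction include the shift of all regions. As given, limma called 9.5% of all regions lower there, and the edgeR share of all regions is not given here. The medians of the 16 regions in the 3 comparisons became -0.40, 0.31 and -0.039 as given and -0.40, 0.32 and -0.060 with edgeR without factors. These settings also turned the sign of single regions, with the as-given value first and edgeR second. In Old vs Young they gave -0.036 and -0.041 at the first Runx2 promoter, -0.081 and -0.081 at Dlx5, and -0.11 and -0.11 at Atf4. In OldAcetate vs Old they gave 0.17 and 0.18 at Dlx5, 0.067 and 0.064 at Dlx6, and 0.18 and 0.18 at Atf4. OldAcetate vs Young had -0.089 and -0.096 at Sp7, -0.089 and -0.087 at Dlx3, -0.11 and -0.098 at Msx2, and -0.040 and -0.079 at the 3′ end of Msx2. Among the Runx2 intragenic regions the as-given values turned regions 2 (-0.20), 4 (-0.34), 5 (-0.33) and 6 (-0.26) for Old vs Young, regions 5 (0.23) and 6 (0.24) for OldAcetate vs Old, and regions 1 (-0.039), 4 (-0.098), 5 (-0.10) and 6 (-0.020) for OldAcetate vs Young. Msx2 also had -0.013 in that comparison with quantile normalization and -0.0072 without the lowest 25% of regions.

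Leaving out each library in turn gave 0 scaled calls each time, and 0 to 3 as-given calls in Old vs Young. The medians ran from -0.055 to 0.026, from 0.038 to 0.11 and from 0.057 to 0.086, and the first was 0.026 without Old replicate 1. Signs changed in Old vs Young at the second Runx2 promoter (-0.23 to 0.039), Dlx3 (-0.47 to 0.14), Msx2 (-0.50 to 0.10) and its 3′ end (-0.65 to 0.26). They changed in OldAcetate vs Old at the first Runx2 promoter (-0.043 to 0.24), Dlx5 (-0.18 to 0.032), Msx2 (-0.098 to 0.50), Atf4 (-0.15 to 0.026), Runx2 intragenic region 7 (-0.045 to 0.15) and the 3′ end of Msx2 (-0.18 to 0.73). They also changed in OldAcetate vs Young at Dlx3 (-0.28 to 0.33), Msx2 (-0.14 to 0.15) and its 3′ end (-0.16 to 0.30). Further Runx2 intragenic regions changed sign, namely 4 (-0.034 to 0.048), 5 (-0.29 to 0.33) and 6 (-0.075 to 0.26) for Old vs Young, regions 2 (-0.093 to 0.14), 4 (-0.0015 to 0.016), 5 (-0.31 to 0.30) and 6 (-0.17 to 0.17) for OldAcetate vs Old, and regions 3 (-0.16 to 0.015), 4 (-0.026 to 0.056) and 5 (-0.11 to 0.14) in OldAcetate vs Young. The causes were not tested. With promoters taken within 2 kb the count of member promoter regions stayed at 8. The Runx2 promoter ratio kept its sign in all 3 comparisons, from 0.24 to 0.59, from -0.39 to -0.05 and from 0.08 to 0.31.

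Replicate numbers did not pair the libraries (r of deviations 0.01, -0.03 and -0.04 across regions), and with a replicate block 0 members were called in each comparison, with medians of -0.05, 0.07 and 0.07. With 2 libraries a group and 13 to 319 reads per member region, differences of the size seen relative to all regions were within about 3 standard errors of 0.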
